A study of Mus musculus with 8 samples.

Results

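The mesothelial and epicardial marker genes are 10 genes: Msln, Upk3b, Lrrn4, Krt19, Krt18, Krt8, Wt1, Nkain4, Rspo1 and Gpm6a. Their transcripts were followed across 8 arrays of mouse heart muscle. The genes were found by matching the symbol or RefSeq transcript of each probe, and each of the 10 was measured by 1 probe, among 20659 genes named on the array. They were chosen with the genotype difference of these same arrays known, so their genotype values are a description and carry no test here. The samples were myocardium of untreated male mice labelled NPRA-/- (3 arrays) or NPRA+/+ (5 arrays). NPRA, the product of Npr1, is the receptor through which atrial and B-type natriuretic peptides raise cyclic GMP. The deletion is described by the submitters as conditional, from a floxed Npr1 allele, and as specific to the heart. The sources used here name neither the Cre line that drives it, nor the animals' age, nor whether the NPRA+/+ mice carry floxed alleles. The series' design text names m6A profiling, but the array design is one for gene expression, so signals were read as transcript levels.

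The heart is covered by the epicardium, a single layer of mesothelial cells that lines the pericardial cavity, as the pleura and peritoneum line theirs. Mesothelial cells keep epithelial features such as simple keratins and surface glycoproteins, although they arise from mesoderm. In the embryo the epicardium is marked by Wt1 and gives rise to fibroblasts and mural cells of the coronary vessels. In the adult it is a thin layer, and a dissected piece of myocardium can hold more or less of it.

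Per array, 83.7% to 92.6% (NPRA-/-) and 79.5% to 88.8% (NPRA+/+) of 39429 probes passed the scanner software's test for a signal well above background. The 75th percentile of signal ran from 775 to 1253. Levels below are log2 signals relative to this percentile of the same array (signals of different probes are not comparable as transcript levels, and where probes are chosen or summed by signal, this says nothing of which transcript is more abundant). The number of arrays limits the precision, and since the labels name no animals, the p-values refer to spread among samples, which may be technical. The 8 ventricular myocyte markers listed, such as Myh6 and Tnnt2, were well above background on all arrays. Npr1 was near background in both genotypes (-5.85 ± 0.50, SD, n = 3, against -5.88 ± 0.66, SD, n = 5); its probe's place in the gene is unknown here, so it does not check the labels. NPRA-/- replicate 1 and NPRA+/+ replicate 1, each scanned on a day of its own, stood apart from the rest. Scan day 1 held replicates 2 and 3 of both genotypes and was the one day with both. Arrays with the same scan time were taken to share a slide. No slide held both genotypes, so slide and genotype cannot be told apart, on scan day 1 as well. Dim probes as a whole differed by genotype: the median difference, NPRA-/- minus NPRA+/+, was 0.21 over the 35329 probes tested, and it ran from 0.63 in the dimmest quintile of probes by signal to 0.05 in the brightest. Each gene is therefore also set against the probes of its own quintile. The part of this shift in the differences of dim genes was not tested.

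The windows around the annotated start of 3 of the genes are shown because Upk3b, Lrrn4 and Gpm6a had the highest correlations with each other within genotypes, none of which passed adjustment, as described further on. They come from RefSeq (GRCm38.p6), 250 bases before to 50 after the start, on the gene's strand. RefSeq windows were at hand for 6 of the genes: Upk3b, Lrrn4, Krt18, Krt8, Rspo1 and Gpm6a, the last with 2 starts. Capitals mark each match to GGAATG, the core bound by TEAD factors, on either strand.
Upk3b, chr5:136038246-136038545, plus strand: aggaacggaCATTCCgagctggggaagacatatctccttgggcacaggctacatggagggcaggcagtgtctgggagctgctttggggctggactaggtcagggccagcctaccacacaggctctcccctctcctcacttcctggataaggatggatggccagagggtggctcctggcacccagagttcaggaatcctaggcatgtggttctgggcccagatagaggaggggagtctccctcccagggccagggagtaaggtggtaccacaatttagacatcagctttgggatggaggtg
Lrrn4, chr2:132880813-132881112, minus strand: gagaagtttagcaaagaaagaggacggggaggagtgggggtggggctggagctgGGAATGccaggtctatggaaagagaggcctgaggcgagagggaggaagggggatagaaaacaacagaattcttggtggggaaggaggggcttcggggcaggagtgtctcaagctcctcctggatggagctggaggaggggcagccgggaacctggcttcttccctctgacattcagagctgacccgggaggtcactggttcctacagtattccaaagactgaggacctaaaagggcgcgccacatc
Gpm6a, first start, chr8:54779184-54779483, plus strand: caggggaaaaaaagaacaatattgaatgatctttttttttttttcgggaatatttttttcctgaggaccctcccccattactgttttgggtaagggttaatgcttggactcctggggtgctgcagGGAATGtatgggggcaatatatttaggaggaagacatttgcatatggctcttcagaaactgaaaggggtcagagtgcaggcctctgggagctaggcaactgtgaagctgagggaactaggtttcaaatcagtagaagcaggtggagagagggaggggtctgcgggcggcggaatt

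The match lay 241 bases before the start in Upk3b, on the opposite strand, 196 before it in Lrrn4 and 125 before it in Gpm6a. Of all 32851 RefSeq windows, 14.7% held it. The windows of Rspo1, Krt18 and Krt8 and the second start of Gpm6a did not hold these letters. TGANTCA (AP-1, 7.8% of all windows) was in no window of these genes. TATAAA (13.6%) was in those of Krt8 and the second start of Gpm6a, and GGGCGG (the GC box, 35.7%) in the first of Gpm6a. No match overlapped one to another motif. The GC content of the windows ran from 36.0% (second start of Gpm6a) to 69.0% (Rspo1), with 58.7% for Upk3b and 58.0% for Lrrn4, against a median of 52.7% over all windows. The motifs were chosen after the values of the genes were known.

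Among the surface proteins, Msln, Upk3b and Lrrn4 were higher on every NPRA-/- array than on any NPRA+/+ array. Msln encodes mesothelin, a glycosylphosphatidylinositol-anchored glycoprotein of mesothelial cells. Its level was -1.61, -1.96 and -0.69 on the NPRA-/- arrays, in replicate order, against -4.21, -3.79, -4.24, -3.10 and -4.16 on the NPRA+/+ arrays. The highest NPRA+/+ array, replicate 4, lay below the lowest NPRA-/- array, replicate 2. On average it was at -1.42 ± 0.66 (SD, n = 3) in NPRA-/- and -3.90 ± 0.48 (SD, n = 5) in NPRA+/+, a fitted difference of 2.48 ± 0.36 (SE), or 5.58-fold. Msln was well above background on all 8 arrays. In its quintile of 7065 probes, the middle one by signal, 0 had a larger difference. In bulk tissue, more cells of a type and more transcript per cell cannot be told apart, and this holds for every gene described here.

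Upk3b encodes a uroplakin, a membrane protein of urothelium and mesothelium. It was at -5.20, -4.25 and -3.39 on the NPRA-/- arrays, in replicate order, against -7.18, -6.17, -6.46, -8.21 and -6.58 on the NPRA+/+ arrays. All 3 NPRA-/- arrays but only 1 of 5 NPRA+/+ arrays, replicate 3, were well above background. The fitted difference was 2.64 ± 0.54 (SE), and it fell to 1.94 once every NPRA+/+ signal below its array's lowest signal well above background was raised to that value, which left the genotypes apart. Raising applied to 3 NPRA+/+ arrays. With most NPRA+/+ values not above background, the fitted difference has no firm rank among probes.

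Lrrn4 encodes a leucine-rich repeat neuronal protein and is a marker of mesothelium. Its level was -5.61, -4.24 and -3.58 on the NPRA-/- arrays, against -7.81, -6.44, -6.07, -7.08 and -6.39 on the NPRA+/+ arrays. Replicate 1 was the lowest array of each genotype. The difference was 2.28 ± 0.52 (SE) as fitted and 1.63 with the raised background values, under which the genotypes overlapped. Lrrn4 was above background on 2 NPRA+/+ arrays, replicates 3 and 5.

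Nkain4, which encodes a protein that interacts with the sodium pump, and Gpm6a, which encodes a membrane glycoprotein of neurons that is also found in mesothelium, were above background on all 8 arrays. Nkain4 was at -2.96, -2.90 and -2.15 on the NPRA-/- arrays, in replicate order, against -3.64, -4.13, -4.40, -3.52 and -4.35 on the NPRA+/+ arrays. These did not overlap, with a fitted difference of 1.34 ± 0.28 (SE), or 2.52-fold. Gpm6a was at -2.35, -1.58 and -1.16 against -2.90, -1.79, -2.18, -2.60 and -1.98. Here NPRA-/- replicate 1 lay below 3 of the NPRA+/+ arrays, and the fitted difference was 0.60 ± 0.33 (SE), or 0.92 without that array. Among the 7065 probes of the quintile of Gpm6a, 954 had a larger difference, whereas 55 of 7066 did in that of Nkain4.

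The simple keratins 8, 18 and 19 form the intermediate filaments of simple epithelia, Krt8 pairing with Krt18, and mesothelial cells carry them too. They differed among themselves. Krt19 was at -4.30, -5.10 and -4.82 on the NPRA-/- arrays, in replicate order, against -6.27, -7.95, -6.83, -6.53 and -6.43 on the NPRA+/+ arrays. The genotypes did not overlap, the fitted difference being 2.06 ± 0.39 (SE), or 1.52 with 3 NPRA+/+ values raised to background. As for Lrrn4, 2 of 5 NPRA+/+ arrays were well above background, again replicates 3 and 5. Krt19, Lrrn4 and Upk3b all lay in the dimmest quintile.

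Krt18 was above background on all arrays, at -3.19, -3.79 and -3.14 against -3.82, -3.90, -3.87, -5.10 and -3.45. NPRA+/+ replicate 4 was the lowest by far, and replicate 5 lay above NPRA-/- replicate 2. The difference was 0.66 ± 0.36 (SE), 0.39 without NPRA+/+ replicate 4, and 1697 of 7066 probes of its quintile had a larger one. Krt8, the partner of Krt18, was not well above background on any array of either genotype, so it was not tested and has no fold.

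Rspo1 is a secreted R-spondin, which strengthens Wnt signalling at the receptor. Its level was -2.61, -2.02 and -1.34 on the NPRA-/- arrays, in replicate order, against -3.53, -4.12, -3.47, -2.97 and -3.57 on the NPRA+/+ arrays. All 8 arrays were above background and the genotypes did not overlap. The fitted difference was 1.54 ± 0.33 (SE), or 2.91-fold, and 11 of 7065 probes of its quintile had a larger one.

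Wt1 encodes the zinc finger transcription factor of the Wilms tumour locus, which marks the epicardium and in the adult heart is also found in some endothelial cells. It was at -0.50, -0.46 and -0.31 on the NPRA-/- arrays, against -0.90, -0.66, -0.25, -0.91 and -0.54 on the NPRA+/+ arrays. NPRA+/+ replicate 3 was the highest array of all. The difference was 0.23 ± 0.18 (SE), 0.02 relative to the median of all probes, and -0.05 with scaling to the median. In its quintile, 1501 of 7066 probes had a larger one.

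**Figure D1:**
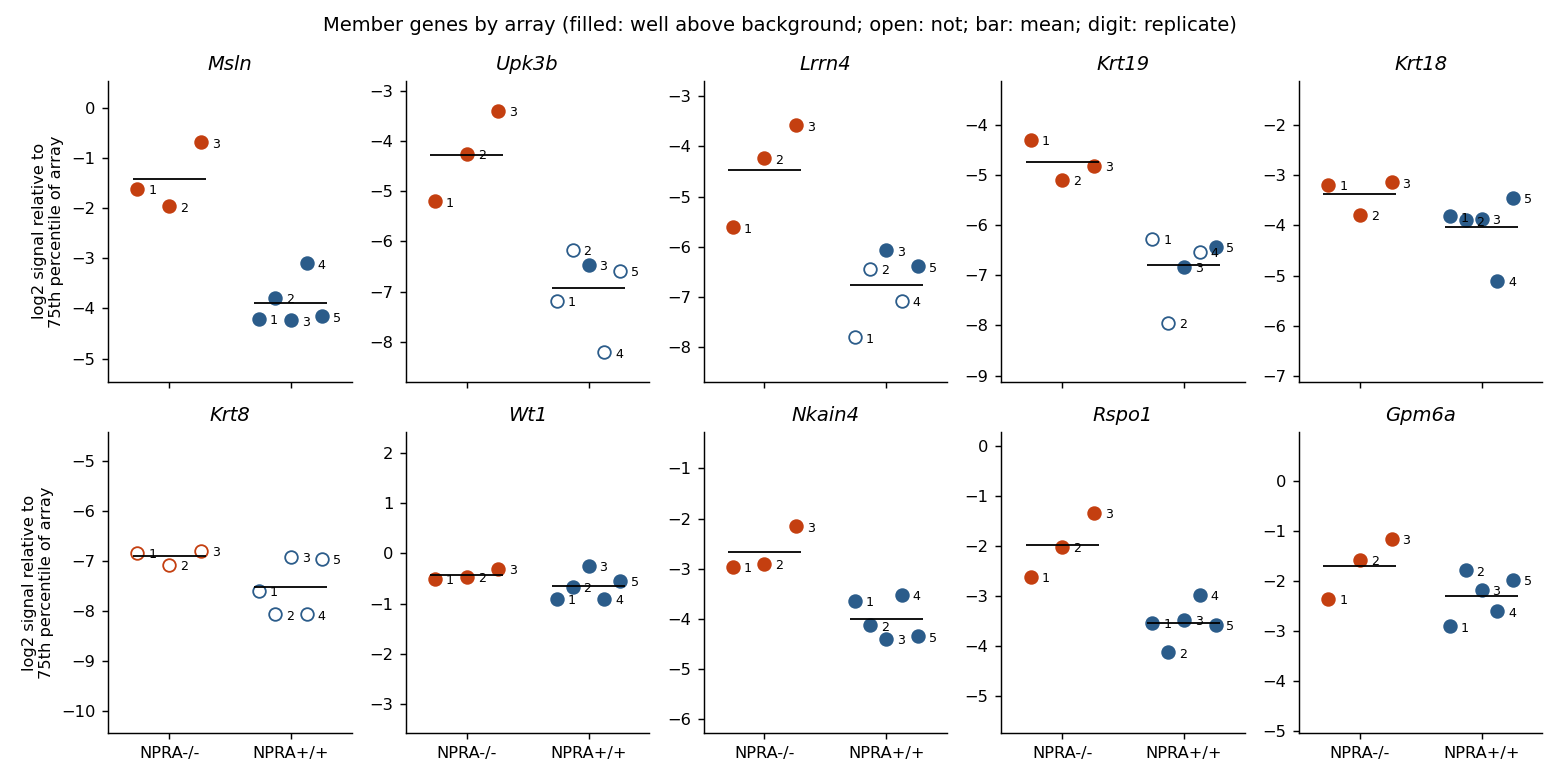
Level of each of the 10 genes on each array (y axis, log2 signal relative to the array's 75th percentile; every panel spans the same range of log2 units) by genotype (x axis), with replicate numbers, filled points for arrays well above background, open points for the others, and bars for means. Msln, Upk3b, Lrrn4, Krt19, Nkain4 and Rspo1 show no overlap between genotypes, Krt18, Wt1 and Gpm6a overlap, and Krt8 is open on all 8 arrays.

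Of the 9 genes tested, 6 did not overlap between genotypes, a pattern shown by 14.1% of all probes tested (higher on NPRA-/-). At an adjusted p under 0.05 limma called 1, Msln, against 0.320% of all probes called higher. The median fitted difference of the 9 was 1.54, beside 0.21 for all probes. Nothing is read from these counts, because the genes were chosen on this contrast, and because Upk3b, Lrrn4 and Krt19 passed the filter on dim probes through the NPRA-/- arrays and at most 2 NPRA+/+ arrays. The 6 genes above background on all 8 arrays, which this filter could not select, were Msln, Rspo1, Nkain4, Krt18, Gpm6a and Wt1, with the values above.

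Within scan day 1, with 2 arrays of each genotype, the fitted difference was 2.69 for Msln, 2.49 for Upk3b, 2.34 for Lrrn4, 2.43 for Krt19, 2.12 for Rspo1 and 1.74 for Nkain4. It was 0.62 for Gpm6a, 0.42 for Krt18 and 0.07 for Wt1. These arrays are among those on which the genes were chosen. On that day each genotype was on a slide of its own, so the differences hold any difference between slides. Both NPRA+/+ arrays of that day have source name number 1, and whether they share a source is not known. Limma's estimate of the correlation between arrays of a slide was 0.872, so the spread within each genotype may be small for that reason. As with the counts above, and for the same reasons, nothing is read from the calls that follow. In the fit of scan day 1 limma called 6 of the 9 (15.6% of all probes were called higher). Without scan days 3 and 4 it also called 6 (11.2% of all probes), and without NPRA+/+ replicate 1 again 6 (11.0%), in each case Msln, Upk3b, Lrrn4, Krt19, Nkain4 and Rspo1. With any other single array left out it called 0, Msln included. Msln was also not called with scan day as a block (2.69 ± 0.54, SE, the difference being that of scan day 1 by construction), with slide as a random block (2.41 ± 0.85), with quantile normalization, scaling to the median, normexp or the deposited table, over the probes above background on all 8 arrays, or with NPRA+/+ arrays of equal source name number averaged. Limma called 0 of the marker genes under each of these. Normexp background correction brought the dimmest genes closer to 0, with 1.13 for Upk3b, 1.12 for Lrrn4 and 0.99 for Krt19, against 1.87 for Msln, and quantile normalization brought Krt18 to 0.28. With the replicate number as a block limma called 0, the difference of Msln being 2.66 by repetition number and 2.38 by the number in the source name.

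**Figure D2:**
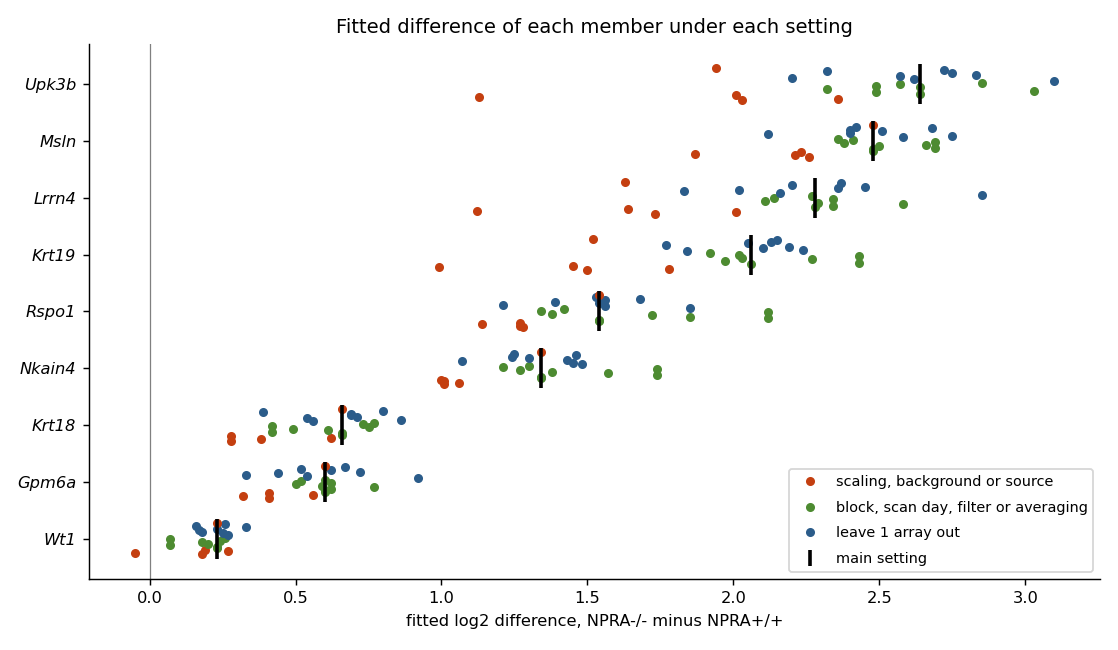
Fitted log2 difference of the 9 tested genes (x axis, NPRA-/- minus NPRA+/+) under each processing setting (points, coloured by kind) and under the main setting (vertical marks). Upk3b ranged from 1.13 to 3.10 and Msln from 1.87 to 2.75, and only Wt1 reached a value below 0, -0.05.

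Deviations from the genotype mean do not use the difference by which the genes were chosen, so they bear on whether the genes vary together from array to array. Over the 36 pairs of the 9 genes, Pearson's r across the 8 arrays had a median of 0.16, against 0.01 over all pairs of probes, whose quartiles were -0.45 and 0.47. It was above 0 for 20 pairs and below 0 for 16, and ran from -0.68 (Krt19 and Gpm6a) to 0.93 (Lrrn4 and Gpm6a). After Benjamini-Hochberg adjustment over the 36 pairs, 0 passed in the exact permutation test (720 orders of arrays within genotypes, two-sided, smallest possible p 0.00139). Before adjustment 4 pairs had a p under 0.05, as did 4 with Spearman's rho. The genes share the same 8 arrays, of which both replicates 1 carried most of the first component of within-genotype variation (57.5%). Upk3b was well above background on only 1 of 5 NPRA+/+ arrays, and Lrrn4 and Krt19 on 2. Their other NPRA+/+ deviations, the lowest of each gene included, come from signals not well above background. The part of such signals in the correlations of these genes was not tested.

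The closest pair was Lrrn4 and Gpm6a, with r = 0.93 (exact permutation p = 0.00833, adjusted 0.267) and rho = 0.83 (p = 0.0514, adjusted 0.370). Without the arrays farthest from the median of Lrrn4, both replicates 1, r was 0.76, and without scan days 3 and 4 it was 0.74. Upk3b and Gpm6a had r = 0.84 (exact permutation p = 0.0208, adjusted 0.267) and rho = 0.86 (p = 0.0306, adjusted 0.275), with r = 0.90 without the 2 farthest arrays and 0.94 without scan days 3 and 4. These are the genes whose start windows are printed above, Upk3b and Lrrn4 having r = 0.77 (exact permutation p = 0.0583).

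Wt1 and Lrrn4 had r = 0.73 (exact permutation p = 0.0222, adjusted 0.267) and rho = 0.83 (p = 0.00556, adjusted 0.200), with r = 0.81 without the 2 farthest arrays and 0.90 without scan days 3 and 4. Msln, Nkain4 and Rspo1 formed another group of positive values. Msln and Nkain4 had r = 0.76 (exact permutation p = 0.0458, adjusted 0.336) and rho = 0.64 (p = 0.118, adjusted 0.531), but r was 0.05 without NPRA-/- replicate 3 and NPRA+/+ replicate 4, so the relation rests on those arrays. Msln and Rspo1 had r = 0.61 (exact permutation p = 0.167), and -0.75 without the same 2 arrays. Msln and Upk3b had r = -0.11 (exact permutation p = 0.814). Krt19 was below 0 with Upk3b (-0.57), Lrrn4 (-0.52) and Gpm6a (-0.68). Replicate 1 of each genotype was its highest array for Krt19 and its lowest for Lrrn4 and Gpm6a. Scan day 1 holds too few arrays for a correlation of its own.

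**Figure D3:**
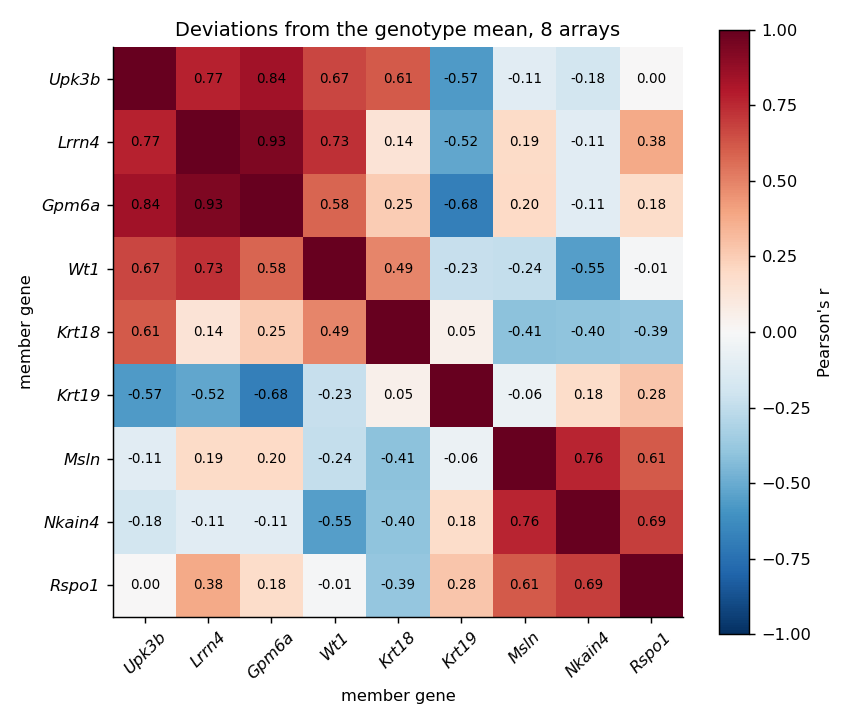
Pearson's r (colour and printed value) between each pair of the 9 tested genes (both axes), over deviations of 8 arrays from their genotype mean. Upk3b, Lrrn4, Gpm6a and Wt1 share values from 0.58 to 0.93, and Msln, Nkain4 and Rspo1 values from 0.61 to 0.76. Of the 36 pairs, 0 passed the adjusted exact permutation test. Upk3b, Lrrn4 and Krt19 were mostly not well above background on the NPRA+/+ arrays.

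Genes most like Msln, Upk3b, Lrrn4 and Krt19 in these deviations, by the mean of the 4 values of r among 15613 genes above background on all arrays, were Crym, Mdfi, Edil3 and Mthfd2 (each 0.44) and Cd9, Hoxb9, Apold1 and Bgn (each 0.43). The median gene was at 0.04. Their r was 0.62 to 0.88 with Lrrn4, 0.34 to 0.79 with Upk3b, 0.39 to 0.71 with Msln and -0.35 to 0.13 with Krt19. Their fitted genotype differences ran from -0.30 ± 0.28 (SE) for Apold1 to 0.64 ± 0.23 for Crym. That of Crym was close to those of the marker genes Krt18 (0.66) and Gpm6a (0.60), and the others were at most 0.31. This is a description over 8 arrays with no test.

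The other genes of the mesothelium and epicardium form a list of 20, taken from textbook knowledge, of which 17 were tested. In limma's fit 0 were called higher and 0 lower, with 3 higher at an unadjusted p under 0.05, against 18.3% of all probes. The median fitted difference was 0.28, and 14 of the 17 were positive on the brightest probe of each gene. The rest were Krt7, a keratin (-0.18 ± 0.36, SE), and Tbx18 and Tcf21, given below. Pdpn, podoplanin, was at 0.28 ± 0.20 (SE) on its brighter probe and at -1.30 ± 0.59 on the other. Slpi, a secreted inhibitor of leukocyte proteases, was the one without overlap, at -2.65, -2.72 and -2.65 in NPRA-/- replicates 1 to 3 and from -3.95 to -3.15 in NPRA+/+. Its difference was 0.85 ± 0.19 (SE; limma, adjusted p = 0.0825). Bnc2, a basonuclin zinc finger protein, differed by 0.85 ± 0.30 (adjusted p = 0.174), with NPRA+/+ replicate 1 within the NPRA-/- range. Efemp1, a fibulin of the extracellular matrix, differed by 0.44 ± 0.18 (adjusted p = 0.218).

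Mpzl2, an adhesion molecule of epithelia, was at 2.96, 2.09 and 2.12 in the NPRA-/- replicates. In the NPRA+/+ replicates it was at 2.88, 1.08, 0.93, 0.79 and 0.62, so that replicate 1 again overlapped. Its difference was 1.13 ± 0.51 (SE; limma, adjusted p = 0.269). Prg4, lubricin, differed by 0.93 ± 0.46 (adjusted p = 0.311) on its brighter probe and by -0.29 ± 0.37 on the other. Dpp4, a surface peptidase, differed by 0.39 ± 0.18 (adjusted p = 0.291) and Ezr, ezrin, which links membrane and actin, by 0.12 ± 0.11 (0.612), or -0.15 with scaling to the median. Without NPRA+/+ replicate 1 limma called 3 of the 17 higher, Slpi, Mpzl2 and Bnc2. Within scan day 1 it called 4, these and Upk1b, a uroplakin tetraspanin (1.16 ± 0.57 over all arrays, adjusted p = 0.312), beside the shares of all probes given above.

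The transcription factors of the embryonic epicardium, a choice made after their values were seen, showed no difference past the threshold. Tbx18 was at -0.10 ± 0.18 (SE; limma, adjusted p = 0.822) and Tcf21 at -0.03 ± 0.18 (adjusted p = 0.946). Scx, another transcription factor of the list, was at 0.28 ± 0.20 (limma, adjusted p = 0.486). Aldh1a2, which makes retinoic acid in the epicardium, was at 0.34 ± 0.17 (adjusted p = 0.316). Calb2, calretinin, was not well above background on any array. Bnc1, a basonuclin of mesothelium, was above background on 2 of 3 NPRA-/- arrays and 0 of 5 NPRA+/+ arrays, and was not tested. Its mean was -6.01 ± 1.47 (SD, n = 3) against -7.91 ± 0.53 (SD, n = 5). With each NPRA+/+ array taken at the lowest signal that counted there as well above background, or at the probe's own where higher, it was at least 1.25-fold higher on NPRA-/-. The genotypes overlapped, since NPRA-/- replicate 1, at -7.70 and not above background, lay within the NPRA+/+ range. The bound therefore rests on the other NPRA-/- arrays. The same detection counts were found for Lep, Ucp1, Ptcra, Sftpa1 and Nkx2-1, dim genes from the lists of other cell types below. None of these was tested either, and Lep, Ucp1 and Ptcra did not overlap between genotypes. This pattern was thus not particular to Bnc1 or to mesothelial genes.

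**Figure D4:**
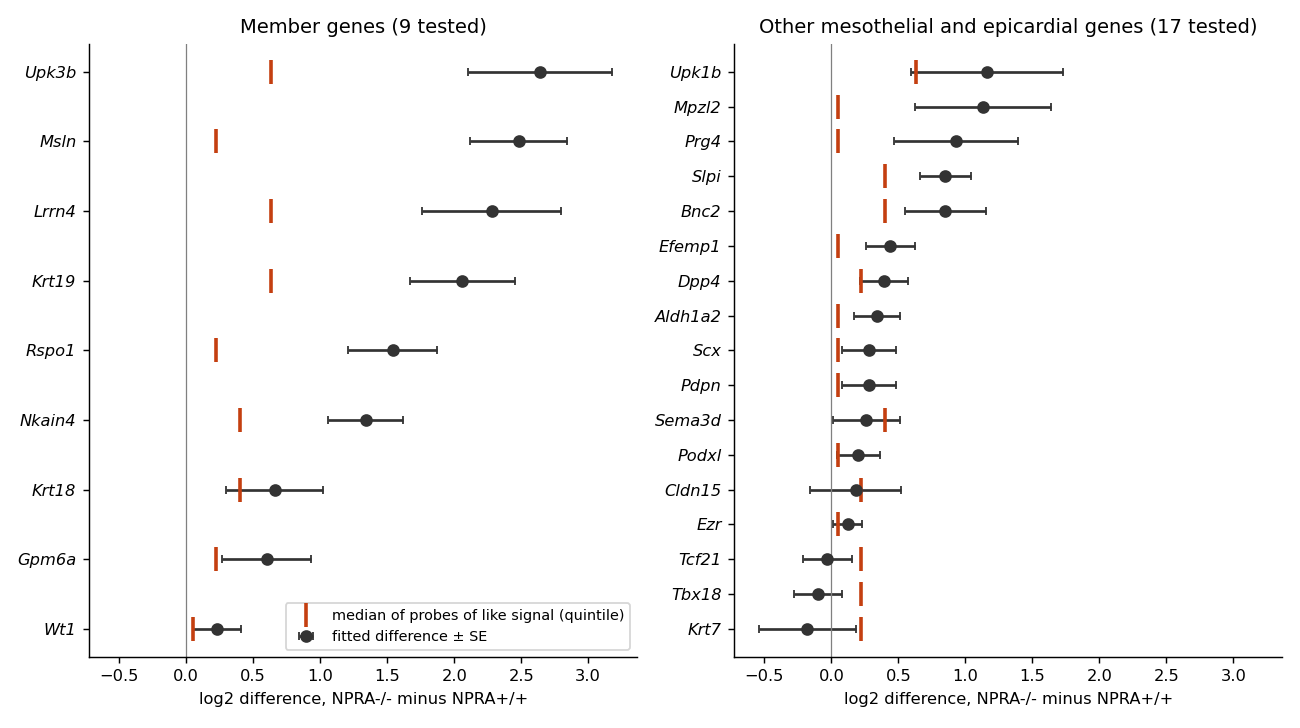
Fitted log2 difference (x axis, NPRA-/- minus NPRA+/+; points with SE bars, 3 and 5 arrays) of the 9 tested marker genes (left) and the 17 other mesothelial and epicardial genes tested (right), with the median difference of the quintile of probes of like signal (vertical marks). The differences of Upk3b (2.64), Lrrn4 (2.28) and Krt19 (2.06) rest on NPRA+/+ signals mostly not above background, and Mpzl2 (1.13) and Bnc2 (0.85) on the right overlap between genotypes through NPRA+/+ replicate 1.

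Markers of other cell types that a piece of heart can hold were summed on each array, in units of its 75th percentile. Beside them, the sum of the 10 genes ran from 1.74 to 2.83 in NPRA-/- and from 0.991 to 1.36 in NPRA+/+. Each sum is weighted towards its brightest probes and is no measure of the amount of a cell type. Among the 10 genes the brightest was Wt1 (mean -0.42 and -0.65). Limma called 0 of the 57 genes tested from the 8 lists of other cell types. Of the 57, 8 had an unadjusted p under 0.05, all of them higher, beside 18.3% of all probes. The epithelial markers Epcam and Cdh1 were not above background on any array. The epithelial sum was 13.3 to 16.9 against 6.15 to 21.2, with Esrp1 (difference 0.50 ± 0.46, SE) and Krt5 (0.40 ± 0.36). Most of it was the signal of Esrp1 (mean 3.79 and 3.29), Krt5 being next (-2.19 and -2.59). Lung epithelial markers, with Sftpd (0.13 ± 0.39) and Scgb1a1 (0.16 ± 0.16), summed to 0.848 to 1.41 against 0.745 to 1.36. Thymocyte markers, with Cd1d1 (0.11 ± 0.15) and Dntt (0.47 ± 0.19), summed to 1.36 to 1.55 against 0.884 to 1.48, Cd3g not being above background on any array. Of the 7 tested, 4 were higher at an unadjusted p under 0.05, beside 18.3% of all probes. These were Dntt, Themis (0.58 ± 0.23), and the 2 without overlap, Cd8a (0.57 ± 0.15; limma, adjusted p = 0.103) and Rag1 (1.13 ± 0.24; adjusted p = 0.0754), the last above background on 1 of 5 NPRA+/+ arrays.

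Adipocyte markers, with Fabp4 (0.61 ± 0.33, SE; also of endothelium) and Cidea (-0.04 ± 0.14), summed to 94.5 to 156 against 55.5 to 130. Fibroblast markers, with Gsn (0.60 ± 0.38) and Dcn (0.41 ± 0.16), summed to 157 to 219 against 121 to 188. Their median difference was 0.27, with 6 of 8 positive and Pdgfra and Lum below 0. Endothelial markers, with Fabp4 and Egfl7 (0.26 ± 0.13), summed to 149 to 204 against 104 to 176. Their median difference was 0.08, with 5 of 8 positive and Kdr, Tie1 and Cdh5 below 0. Fabp4 was the brightest gene of both the adipocyte and the endothelial list (mean 6.67 in NPRA-/-, 6.06 in NPRA+/+). These sums therefore largely share a probe and are not independent. The ventricular list, with Actc1 (0.75 ± 0.53) and Myl2 (0.60 ± 0.49), was at 678 to 1810 against 348 to 1440, and the atrial list, with Nppa (0.12 ± 0.15) and Myl4 (0.37 ± 1.38), at 43.7 to 101 against 47.9 to 100. Over all arrays the genotypes overlapped in each of these 8 sums, but in 5 of them only through NPRA+/+ replicate 1. Without that array the NPRA+/+ sums were 121 to 135 for fibroblast, 104 to 130 for endothelial, 55.5 to 77.6 for adipocyte, 348 to 586 for ventricular and 0.884 to 1.08 for thymocyte markers, each below all NPRA-/- sums. The same held for the other mesothelial and epicardial genes, at 12.8 to 16.9 in NPRA-/- against 8.43 to 9.34, and 14.9 in NPRA+/+ replicate 1. Mpzl2, the brightest of that list, was itself at 2.88 in NPRA+/+ replicate 1 and at most 1.08 in the other NPRA+/+ arrays. Without NPRA+/+ replicate 1, a higher sum in NPRA-/- was thus not limited to the 10 marker genes, whose own sum was lowest on that array. The part of these cell types in the marker genes' differences was not tested.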

How the data were processed

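The authors deposited 1 scanner file per array with a linear intensity for each spot. Per the file headers, the background had been subtracted within each array and no scaling applied across arrays. The submitters' processing notes name Agilent Feature Extraction 11.0.1.1. The same deposited files hold flags of 0 or 1 for spots well above background, saturated or outlying. The deposited series table holds log2 values with no stated normalization. Each of its columns had a median of 7.05 and had a rank correlation of at least 0.9994 with its array, and 56 of its 39485 entries were not matched.

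Control and outlier spots were left out, spots of a probe averaged, and each array's 75th percentile subtracted on the log2 scale. Probes well above background on at least 3 of 8 arrays (35329; 4100 were not) were fitted with limma 3.58.1 (R 4.3.3; lmFit, eBayes, two-sided, Benjamini-Hochberg adjustment over all of them, threshold 0.05). Genes of other lists are represented by the probe with the highest mean. The analysis was tested on simulated data.

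The marker genes and gene lists were chosen with earlier results of these data known. Besides the 10 genes, those named are, of the other mesothelial and epicardial genes, the 6 with the smallest p and the 2 brightest, of each cell type list the 2 brightest, the 8 most alike and Npr1. Genes named outside this rule were chosen after their values were seen.

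The labels number the samples 1 to 3 and 1 to 5 as biological repetitions, but by source name 3 NPRA+/+ arrays are number 1. The sample titles are bare numbers, different for each array, and do not say whether they stand for animals. Deviations of equally numbered arrays correlated by 0.63, 0.28 and 0.36 with repetition numbers and by 0.35, 0.12 and 0.30 with source name numbers. The 0.35 is for the mean of 3 NPRA+/+ arrays, which singly gave 0.63, -0.37 and -0.37. Unequally numbered arrays reached 0.33 by repetition number and 0.36 by source name number, so this check does not settle whether the numbers pair the samples. Alternatives were other scalings, normexp with an offset of 50, the deposited table, other filters, the mean of a gene's probes, scan day, slide and number as blocks, averaging NPRA+/+ arrays of equal source name number, and leaving out arrays. Slides were inferred from equal scan times in the file headers and not read from a slide label. Raising signals below background was added after the data were seen.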

Additional observations from a re-analysis of the deposited data

Results flagged for a closer look

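Among 59 groups of 5 NPRA+/+ arrays checked, 1 for each of the 10 marker genes, each other mesothelial or epicardial gene on the array and each other gene named with a value, 6 held an array far from the others (gap over range above 0.710), and chance gives about 1 in 20. Krt18 was at -5.10 in NPRA+/+ replicate 4, with a gap of 0.731 of the range. Bnc2 was at -3.32 (0.775) and Mpzl2 at 2.88 (0.794) in NPRA+/+ replicate 1, in both cases above the other NPRA+/+ arrays. In the same array Cldn15 was at -1.04 (0.728) and Krt5 at -1.71 (0.721), above the others, and Pdpn at -1.07 (0.718), below them.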

How the results depend on the processing

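The median difference of the 9 marker genes relative to all probes was 1.33. It was 0.65 with normexp, 0.84 over the 6 genes above background on all 8 arrays, 1.94 within scan day 1 and, by construction alike, with scan day as a block, and 1.65 without scan days 3 and 4. Leaving out 1 array gave 0.99 (without NPRA-/- replicate 3) to 1.65 (without NPRA-/- replicate 1). With the replicate block it was 1.54 by repetition number and 1.15 by source name number, and the block changed no call other than that of Msln. The count of other mesothelial and epicardial genes called higher was 0, against 4 within scan day 1, 3 without scan days 3 and 4, and 0 to 3 with 1 array left out. The median correlation within genotypes was 0.16, and 0.70 with normexp; other settings gave -0.12 to 0.33. Where not given by construction, the cause was not tested. Fitted differences of Wt1 (-0.05) and Ezr (-0.15) were below 0 with scaling to the median. Those of the other marker genes tested stayed above 0 under every setting run. So did those of Slpi, Bnc2, Efemp1, Mpzl2, Dpp4, Upk1b and the brighter probe of Prg4. Krt7 (-0.18), Tbx18 (-0.10), Tcf21 (-0.03) and the dimmer probes of Prg4 (-0.29) and Pdpn (-1.30) were below 0 in the main fit. Upk3b, Lrrn4 and Krt19 are limited by signal over background, not being well above it on 3 or 4 of the 5 NPRA+/+ arrays.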

Other observations

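Atrial myocyte transcripts differed widely between arrays of 1 genotype. Myl7, the atrial regulatory myosin light chain, was at 1.31, -3.29 and 1.25 on the NPRA-/- arrays, in replicate order, against -0.13, -1.51, -4.49, 2.02 and 1.30 on the NPRA+/+ arrays. Sln, sarcolipin, was likewise lowest in NPRA-/- replicate 2 (-3.02) and NPRA+/+ replicate 3 (-3.11). Deviations of Msln from its genotype mean had r = 0.60 with those of Myl7 (exact permutation p = 0.136, adjusted 0.627; rho = 0.69, p = 0.0847, adjusted 0.718), and 0.36 without those 2 arrays. Of 36 relations between the 9 tested marker genes and Myl7, Sln, Myl4 or Tnnt2, computed after the data were seen, 0 passed the adjusted exact permutation test. By rho, Msln with Sln had an unadjusted p under 0.05 (rho = 0.79, exact permutation p = 0.0472, adjusted 0.718), with r = 0.62 (p = 0.136) and 0.39 without the same 2 arrays. By r, 1 relation did, Lrrn4 with Tnnt2, cardiac troponin T (r = -0.82, exact permutation p = 0.0444; rho = -0.60, p = 0.164), which was 0.09 without both replicates 1 and so rests on those arrays.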
